A study of Danio rerio with 16 samples.

Results

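The peaks described here are the differentially open chromatin regions whose nearest annotated gene encodes a forkhead (Fox) or T-box transcription factor. They were found by gene symbol in both deposited peak lists of the series. In all, 107 of 9466 listed peaks matched, of which 79 lay nearest to 30 Fox genes and 25 nearest to 8 T-box genes. The remaining 3 peaks lay nearest to tbxa2r and tbxas1, which encode the thromboxane A2 receptor and thromboxane A synthase. These genes only share the letters tbx with the family and were kept apart.

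ATAC-seq, which reads open chromatin from where the Tn5 transposase inserts sequencing adapters, was performed on FACS-sorted cells of wild type TgBAC(runx1P2:Citrine);Tg(kdrl:mCherry) zebrafish embryos at 28 to 30 hours post fertilization (hpf). In total 16 libraries were made, 3 for every one of 5 sorted populations and 1 from genomic DNA as control. The populations compared were DP-R1hi (mCherry+ with high Citrine, labelled haemogenic endothelium, HE) and DP-R1lo (mCherry+ with low Citrine, labelled aortic endothelium, here aortic roof endothelium, ARE). Both carried the same 2 transgenes, and each library was made from 2000 to 3000 cells of pooled embryos. Citrine was driven by a BAC reporter of the second runx1 promoter, and its protein outlasts its RNA, so that DP-R1lo is a gate on residual fluorescence which also takes in the sprouting inter-somitic vessels. The authors left out 1 outlying replicate of each population before they compared both populations. Only 1 mean per population is given for each peak, so that the spread between replicates is not known and no test over replicates was made.

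Forkhead factors bind DNA through a winged-helix domain and are named in subfamilies by letter. FoxC and FoxO factors are known from vertebrate endothelium, where FoxC proteins act on arterial genes of the Notch pathway and FoxO proteins are held out of the nucleus by PI3K and Akt signalling. T-box factors share a DNA-binding domain first described in Brachyury, and the Tbx2, Tbx3 and Tbx20 branches are best known from the developing heart. Tbx20 also marks the roof of the zebrafish dorsal aorta.

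The labels of both populations were first read against peaks near known genes. Of 5 HE markers, myb, gfi1aa and gfi1ab had listed peaks, and all 6 of these peaks were more open in DP-R1hi. The HE markers runx1 and gata2b had no listed peak. Of 30 peaks nearest to arterial and endothelial genes, 3 were more open in DP-R1hi and 27 in DP-R1lo. Of all listed peaks, 40.8% were more open in DP-R1hi and 59.2% in DP-R1lo. Markers of other cells (myod1, pdgfra, cdh17, gata1a, spi1b, elavl3 and sox10) had 4 listed peaks, 2 in each direction. These lay nearest to pdgfra, gata1a, spi1b and elavl3. A peak near a gene measures chromatin and not expression, and the nearest gene need not be the gene that a peak regulates.

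Most Fox and T-box peaks were more open in the ARE, as were most of all listed peaks. Of the 79 Fox peaks, 24 (30.4%) were more open in DP-R1hi and 55 (69.6%) in DP-R1lo. Among the 25 T-box peaks, 4 (16.0%) were more open in DP-R1hi and 21 (84.0%) in DP-R1lo. Over all 9466 listed peaks the shares were 40.8% and 59.2%. Since the lists hold peaks already called by the authors, these shares describe called peaks alone. Peaks of 1 gene share a locus and are not independent, and no test of the shares was made.

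Counted by gene, 3 Fox genes had peaks more open in DP-R1hi only, 16 had peaks more open in DP-R1lo only, and 11 had both. For the T-box genes these numbers were 1, 4 and 3. Peaks more open in DP-R1hi only were thus found for 10% of Fox and 12.5% of T-box genes, against 34.8% of all genes, and peaks more open in DP-R1lo only for 53.3% and 50%, against 45.9%. Both directions were found for 36.7% of Fox genes and 37.5% of T-box genes, against 19.2% of all 5023 genes with a listed peak. The families also had more peaks for each gene, with a mean of 2.63 for Fox and 3.13 for T-box genes and 1.83 over all genes. A gene with several peaks has more chances to show both directions.

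Levels are given below as the authors' mean log2 concentration of normalized reads, and the log2 fold is the level in DP-R1hi minus that in DP-R1lo. The median log2 fold was -3.26 over Fox peaks and -2.5 over T-box peaks, against -1.89 over all listed peaks. The lists hold no fold between -0.7 and 0.7, so that these medians over both directions follow in part the shares by direction. An absolute log2 fold of at least 2 was reached by 65 of 79 Fox and 21 of 25 T-box peaks, and by 76% of all listed peaks. Peaks more open in DP-R1lo had a median log2 fold of -4.66 for Fox and -2.61 for T-box genes, against -3.90 over the whole list. On the DP-R1hi side the medians were 3.28 for Fox, 2.92 for T-box and 2.70 for all peaks.

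**Figure D1:**
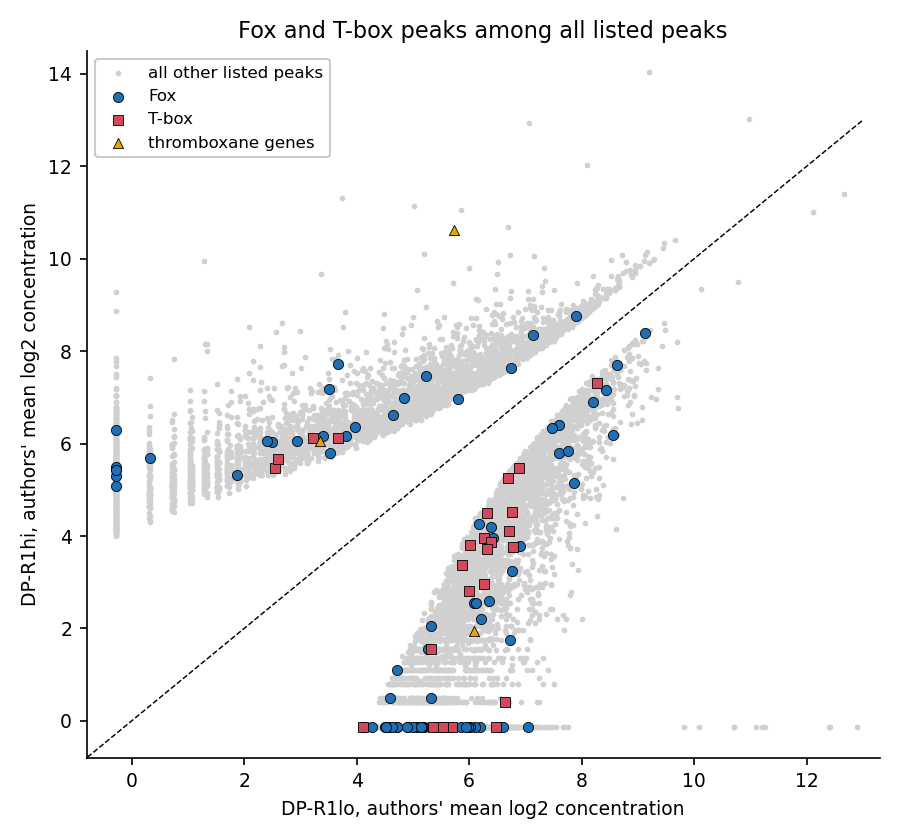
Each listed peak by its authors' mean log2 concentration in DP-R1lo (horizontal) and DP-R1hi (vertical), with Fox peaks as circles, T-box peaks as squares, thromboxane gene peaks as triangles and all other listed peaks in grey. The dashed line marks equal levels, and 34 Fox and T-box peaks lie along the bottom, where DP-R1hi is at its lowest value of -0.14.

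A large part of the Fox peaks sat at the bottom of the scale. The lowest level listed was -0.14 for DP-R1hi and -0.27 for DP-R1lo. Among Fox peaks more open in DP-R1lo, DP-R1hi was at this lowest value in 29 of 55 (52.7%), against 36.6% of all peaks of that direction. For T-box peaks it was 5 of 21 (23.8%). In the other direction, 6 of 24 Fox peaks and 0 of 4 T-box peaks had DP-R1lo at its bottom value, against 18.8% of all peaks more open in DP-R1hi. For such a peak the log2 fold depends on where the scale ends and is read here as a lower bound.

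Without the peaks at a lowest value the Fox family stood nearer to the rest of the lists. Of the 44 Fox peaks left, 18 (40.9%) were more open in DP-R1hi and 26 in DP-R1lo, against 46.9% more open in DP-R1hi over all 6692 such peaks. Their median log2 fold was -1.235. The median over all such peaks is not given here, and the -1.89 over all listed peaks includes those at a lowest value. Those more open in DP-R1lo had a median of -2.60, against -2.83 for all such peaks, so that the larger Fox median of that direction did not hold without the peaks at a lowest value. Of the 20 T-box peaks left, 4 (20.0%) were more open in DP-R1hi and 16 in DP-R1lo.

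Fox peaks were well open in both populations about as often as any listed peak. A level of at least 6 in both was found for 10 of 79 Fox peaks (12.7%) and 1 of 25 T-box peaks, and for 13.5% of all listed peaks. The highest DP-R1lo level was in intron 2 of foxk1, known in mouse from muscle progenitors, with 8.39 in DP-R1hi and 9.12 in DP-R1lo. Its log2 fold of -0.73 was the smallest in size of any Fox or T-box peak.

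**Figure D2:**
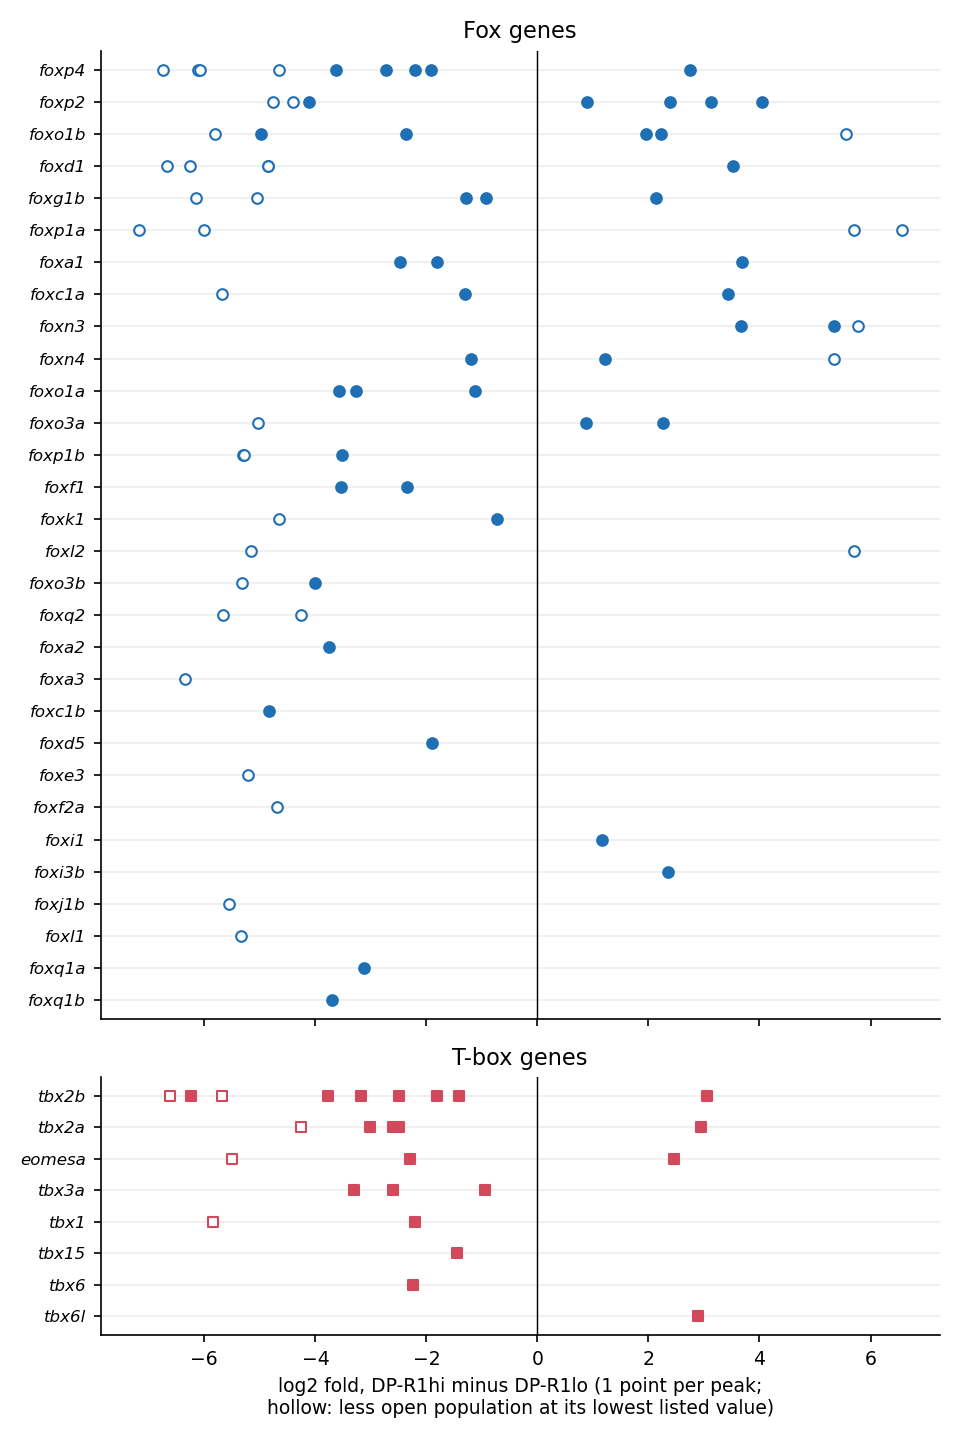
The log2 fold (DP-R1hi minus DP-R1lo) of every Fox peak (upper panel) and T-box peak (lower panel) by nearest gene, with 1 point for each peak and hollow points where the less open population was at its lowest listed value. Points left of 0 were more open in DP-R1lo, and 16 Fox and 4 T-box genes have points on that side only.

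At the transcription start sites of the family genes, every differential peak was more open in the ARE. Peaks annotated as promoter-TSS were found at foxa1, tbx2a, tbx2b, tbx3a and tbx15, and all 5 were more open in DP-R1lo, against 52% of the 506 promoter peaks in the lists. Within 1 kb of a start site there were 9 family peaks, these 5 among them. All 9 were more open in DP-R1lo, against 54.7% of the 729 such peaks. The same 9 were among the 12 family peaks in promoters or exons. Of these 12, 0 were more open in DP-R1hi, against 42.1% of 974 listed peaks of these classes.

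The 4 T-box promoter peaks differed in how far DP-R1hi was open. The tbx2a promoter (GRCz10 chromosome 5, 55843445 to 55844058) had a level of 3.76 in DP-R1hi and 6.78 in DP-R1lo, a log2 fold of -3.02. Its copy tbx2b (chromosome 15, 27431223 to 27431665) had 3.88 in DP-R1hi and 6.38 in DP-R1lo (-2.5). Both genes encode repressors that keep the atrioventricular canal of the heart from chamber differentiation. The promoter of tbx15, a gene of the limb and head skeleton, had 5.25 in DP-R1hi and 6.69 in DP-R1lo (-1.44). At tbx3a, a close relative of tbx2a, the promoter was open in both populations, with 7.32 in DP-R1hi and 8.27 in DP-R1lo (-0.95).

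The 5 Fox peaks within 1 kb of a start site spanned a wider range. For foxa1, a pioneer factor of endoderm, the promoter level was 5.80 in DP-R1hi and 7.60 in DP-R1lo (-1.80). The single exon of foxc1a (chromosome 2, 816046 to 817005) was well open in both, with 6.89 in DP-R1hi and 8.20 in DP-R1lo (-1.31). This gene is needed for vascular integrity and somites in zebrafish. The exon of foxd5, an early neural gene, had 4.27 in DP-R1hi and 6.17 in DP-R1lo (-1.90). Exon 1 of foxf1, a gene of lateral plate and visceral mesoderm, had 2.56 in DP-R1hi and 6.09 in DP-R1lo (-3.53). The foxl1 exon was at the lowest value in DP-R1hi and at 5.20 in DP-R1lo (-5.34). A further peak lay 1172 bp from the foxf2a start site in exon 1, at the lowest value in DP-R1hi and at 4.55 in DP-R1lo (-4.69).

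**Figure D3:**
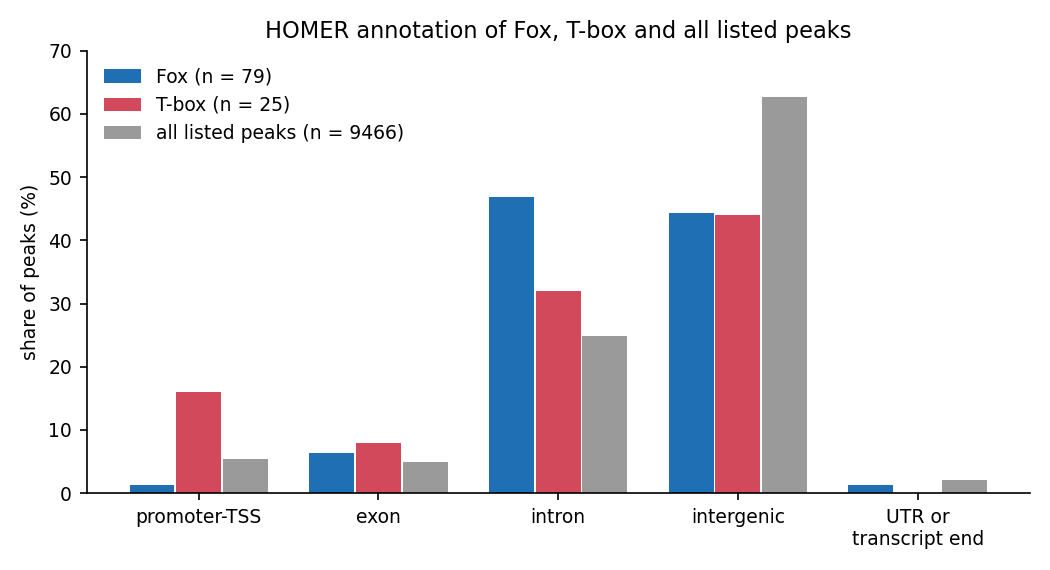
Share of peaks in each HOMER annotation class (vertical axis, percent) for Fox peaks, T-box peaks and all listed peaks. Introns hold 46.8% of Fox, 32.0% of T-box and 24.8% of all listed peaks, and promoters 1.27%, 16.0% and 5.35%. All 8 T-box intron peaks lie in bcas3, the gene beside tbx2b, and 0 in an intron of the T-box gene itself.

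Fox peaks lay in introns more often than the lists as a whole, with 37 of 79 (46.8%) against 24.8%. Of these, 33 were inside a transcript of the Fox gene itself. The first intron held 17, of which 8 were more open in DP-R1hi and 9 in DP-R1lo. Later introns held 16, with 3 more open in DP-R1hi and 13 in DP-R1lo. Over all listed peaks, 41.7% of own first-intron and 39.7% of own later-intron peaks were more open in DP-R1hi. The 3 peaks of later introns that were more open in DP-R1hi all belonged to foxp2. Most Fox intron peaks belonged to FoxO and FoxP genes, among them foxo1b with 6 and foxp2 and foxp4 with 5 each. Most Fox genes outside FoxO and FoxP had no intron peak, so that the higher share was not a trait of the whole family.

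The median distance from the start site was 43702 bp for Fox and 74213 bp for T-box peaks, against 31017 bp over all listed peaks. Beyond 100 kb lay 20.3% of the Fox peaks and 10 of 25 (40.0%) T-box peaks, against 18.6% of all peaks. Most of these 10 T-box peaks were tbx2b peaks in introns of the neighbouring gene bcas3, so that the T-box share rests largely on 1 locus. Peak width was ordinary, with a median of 480 bp for Fox, 493 bp for T-box and 481 bp for all listed peaks.

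Of the 4 FoxO genes with listed peaks, foxo1b and foxo3a carried both directions, and foxo1a and foxo3b had peaks more open in DP-R1lo only. FoxO factors drive quiescence and stress resistance genes, and Foxo1 is needed for vessel development in the mouse. All 6 peaks of foxo1b lay in its first intron. At 13150 and 18664 bp from the start site the chromatin was more open in DP-R1lo, with levels of 1.75 in DP-R1hi and 6.73 in DP-R1lo for the first, and -0.14 in DP-R1hi and 5.67 in DP-R1lo for the second. Further in, 3 consecutive peaks were more open in DP-R1hi.

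The first of these foxo1b peaks (chromosome 10, 31896671 to 31897207) had 5.29 in DP-R1hi and the lowest value in DP-R1lo, a log2 fold of 5.56. The second had 6.61 in DP-R1hi and 4.65 in DP-R1lo (1.96), and the third 7.47 in DP-R1hi and 5.24 in DP-R1lo (2.23). Only 1963 bp beyond the third lay the widest foxo1b peak (31912173 to 31913085), which was more open in DP-R1lo, with 6.19 in DP-R1hi and 8.56 in DP-R1lo (-2.37). The intron thus changed direction at 2 places along 34.8 kb.

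Its copy foxo1a had 3 peaks in the first intron, all more open in DP-R1lo, at log2 folds of -3.26, -1.13 and -3.57. The middle one was open in both populations, with 6.34 in DP-R1hi and 7.47 in DP-R1lo. For foxo3a, 2 neighbouring peaks 298 bp apart in the only intron were more open in DP-R1hi. The stronger of them had 8.77 in DP-R1hi and 7.90 in DP-R1lo (0.87), the highest DP-R1hi level of any Fox or T-box peak, and the weaker had 5.79 in DP-R1hi and 3.52 in DP-R1lo (2.27). The remaining foxo3a peak, 29179 bp away and outside the gene, was at the lowest value in DP-R1hi and at 4.90 in DP-R1lo. Both peaks of foxo3b were more open in DP-R1lo (-5.32 and -4.01).

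The FoxP genes are large transcription units that encode factors of lung, heart, brain and lymphoid development in mammals. They held 23 peaks, of which 7 were more open in DP-R1hi and 16 in DP-R1lo. The share more open in DP-R1hi was 30.4% over all Fox peaks and 40.8% over all listed peaks. In foxp1a the directions separated along the gene. Both peaks of intron 1 were more open in DP-R1hi, with 6.29 in DP-R1hi at 8206 bp and 5.43 in DP-R1hi at 25959 bp, and with DP-R1lo at its lowest value in both. Both peaks of introns 7 and 8 were more open in DP-R1lo, with the lowest value in DP-R1hi and 5.86 and 7.04 in DP-R1lo. The first-intron peak on chromosome 23 (10779158 to 10779890) had the largest log2 fold of the families towards DP-R1hi (6.56, place 68 of 3864). The intron 8 peak (10718576 to 10719439) had the largest towards DP-R1lo (-7.18, place 33 of 5602).

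All 3 peaks of the copy foxp1b were more open in DP-R1lo, at log2 folds of -5.30, -3.52 and -5.28. The foxp4 gene had the most Fox peaks, 9 along 337 kb, with 1 more open in DP-R1hi and 8 in DP-R1lo. In its intron 2, a pair of peaks 2340 bp apart was open in both populations, with 5.15 in DP-R1hi and 7.87 in DP-R1lo for one and 5.84 in DP-R1hi and 7.76 in DP-R1lo for the other. The largest foxp4 difference was in intron 16 (chromosome 11, 21924081 to 21924566), with the lowest value in DP-R1hi and 6.60 in DP-R1lo (-6.74). The single foxp4 peak more open in DP-R1hi lay 109568 bp upstream of the start site, with 6.16 in DP-R1hi and 3.41 in DP-R1lo.

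At foxp2, known for its part in vocal learning and brain development, 4 of 7 peaks were more open in DP-R1hi and 3 in DP-R1lo. The peak nearest to the start site, in intron 1, had 0.49 in DP-R1hi and 4.60 in DP-R1lo (-4.11). The peaks in introns 3, 6 and 9 were more open in DP-R1hi, with log2 folds of 0.89, 2.39 and 3.12, and the peak in intron 7 between them was at the lowest value in DP-R1hi and at 4.63 in DP-R1lo. The largest foxp2 fold towards DP-R1hi was at an intergenic peak 280029 bp from the start site (chromosome 4, 6350708 to 6351168). It had 7.72 in DP-R1hi and 3.67 in DP-R1lo (4.05). All 3 folds towards DP-R1lo were larger in size (-4.11, -4.77 and -4.41).

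**Figure D4:**
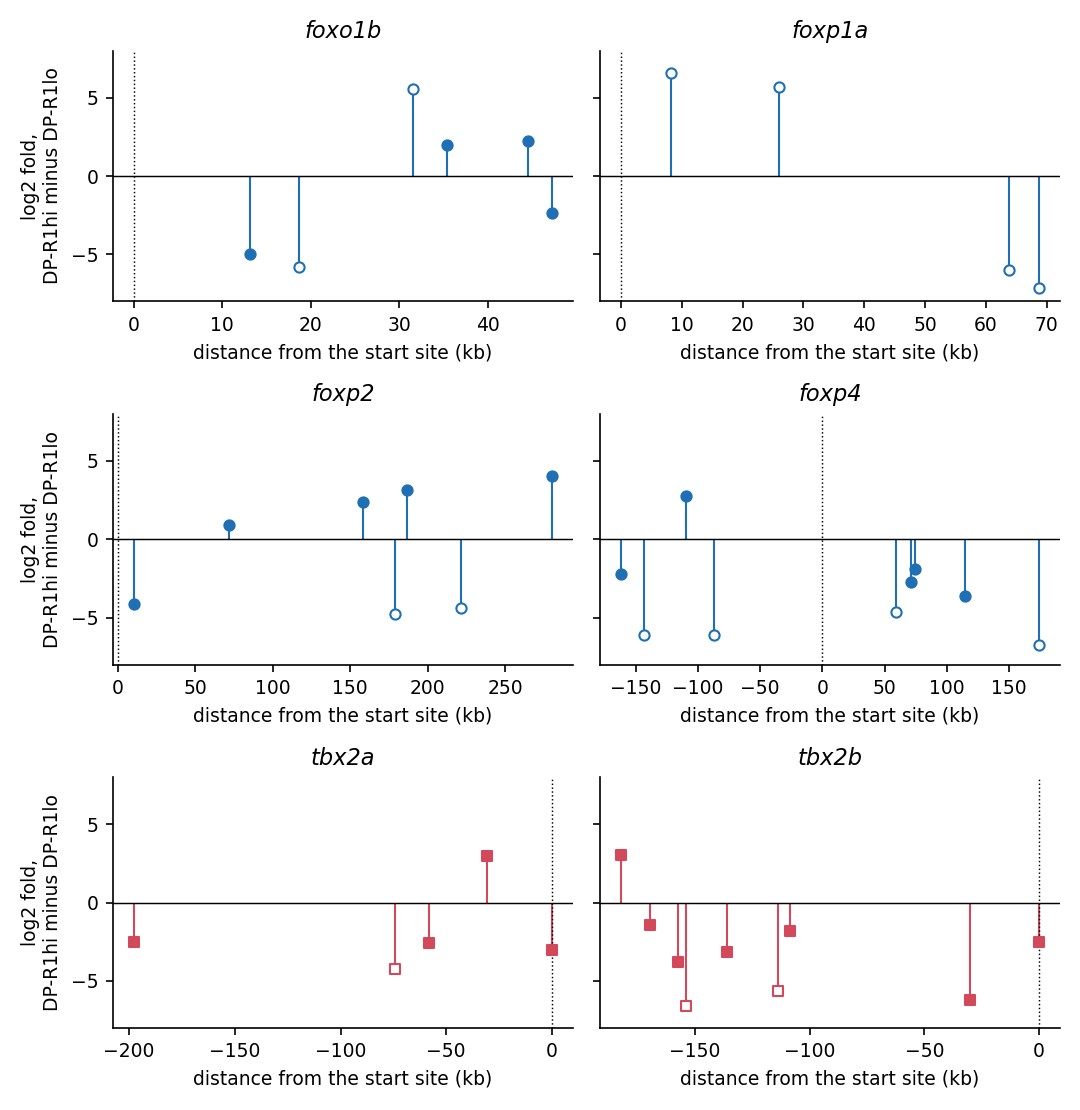
The log2 fold (DP-R1hi minus DP-R1lo, vertical) of each peak of foxo1b, foxp1a, foxp2, foxp4, tbx2a and tbx2b against its distance from the start site in kb (horizontal, dotted line at the start site), with hollow points where the less open population was at its lowest value. In foxp1a both peaks of intron 1 are above 0 and both peaks of introns 7 and 8 below it, whereas 8 of 9 peaks are below 0 in foxp4 and in tbx2b.

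The FoxC and FoxF genes had 7 peaks, of which 1 was more open in DP-R1hi and 6 in DP-R1lo. With the FoxO1, FoxO3 and FoxP1 genes described above, the list of vascular forkhead genes had 28 peaks over 10 of its 12 genes. Of these, 8 (28.6%) were more open in DP-R1hi and 20 in DP-R1lo, against 40.8% and 59.2% of all listed peaks. The median log2 fold of the 28 peaks was -3.53. Within 50 kb of a start site, 8 were more open in DP-R1hi and 11 in DP-R1lo. Over all listed peaks at that distance the numbers were 2536 and 3513. Every vascular forkhead peak farther out was more open in DP-R1lo, against 2089 of 3417 listed peaks at that distance. Most of these vascular peaks were intron peaks of foxo1a, foxp1a and foxp1b. The nearest lay 50181 bp from the start site, so that the split rests on few loci and on the cut at 50 kb. Besides its exon, foxc1a had a peak 32718 bp from the start site that was more open in DP-R1hi, with 5.31 in DP-R1hi and 1.87 in DP-R1lo (3.44). Its farthest peak, 190668 bp away, was at the lowest value in DP-R1hi and at 5.55 in DP-R1lo. For foxc1b the only peak lay in an intron of the neighbouring gene gmds, with 0.49 in DP-R1hi and 5.33 in DP-R1lo (-4.84). The second foxf1 peak, 114166 bp upstream, had 3.94 in DP-R1hi and 6.28 in DP-R1lo (-2.34).

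Fox genes that lie side by side shared a direction in part. On chromosome 2 the foxc1a, foxf2a and foxq1a peaks stretched over 273 kb, with 1 of 5 more open in DP-R1hi and 4 in DP-R1lo, and with 0 listed peaks of other genes between them. On chromosome 20, the foxc1b and foxq1b peaks were both more open in DP-R1lo. On chromosome 8, the peaks of foxe3 and of the gene that the files name foxd1 (foxd2 in the current RefSeq table) spanned 104 kb. Of these 6 peaks, the 5 from foxe3 to 33240 bp of foxd1 were more open in DP-R1lo, all at the lowest value in DP-R1hi and between 4.72 and 6.53 in DP-R1lo. The sixth, 95473 bp out, had 6.03 in DP-R1hi and 2.5 in DP-R1lo.

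A minority of Fox genes leaned to the HE, among them foxp2 and foxo3a described above. All 3 peaks of foxn3, which encodes a checkpoint repressor in human cells, were more open in DP-R1hi. They had 5.68 in DP-R1hi and 0.33 in DP-R1lo (5.35), 6.06 in DP-R1hi and 2.40 in DP-R1lo (3.66), and 5.50 in DP-R1hi and the lowest value in DP-R1lo (5.77). The first pair lay in an intron of the neighbouring gene efcab11 and only the last in foxn3 itself, in intron 1. For foxn4, a gene of retina and spinal cord, 2 of 3 peaks were more open in DP-R1hi, and all 3 lay 85715 bp or more from the start site. The only peaks of foxi1 and foxi3b, genes of the otic placode and of skin ionocytes, were more open in DP-R1hi (1.16 and 2.35), the foxi1 peak at 423263 bp from the start site.

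The Fox genes left had between 1 and 5 peaks. At foxg1b, a forebrain gene, 1 of 5 peaks was more open in DP-R1hi (2.14) and 4 in DP-R1lo, and none was closer than 15010 bp. Its outermost peaks were well open in both populations, with 7.16 in DP-R1hi and 8.44 in DP-R1lo, and with 7.71 and 8.63. The others more open in DP-R1lo had DP-R1hi at its lowest value (-5.05 and -6.15). At foxa1 a peak in the last intron of mipol1 was more open in DP-R1hi, with 7.18 in DP-R1hi and 3.50 in DP-R1lo, in contrast to its promoter and to a peak 4870 bp upstream, which had 3.95 in DP-R1hi and 6.43 in DP-R1lo. The other endoderm genes foxa2 and foxa3 had 1 peak each, more open in DP-R1lo (-3.76 and -6.34). The ovarian gene foxl2 had 2 peaks 4584 bp apart and of opposite direction. The one at the transcript end was at the lowest value in DP-R1hi and at 5.01 in DP-R1lo, and the one beyond it had 5.44 in DP-R1hi and the lowest value in DP-R1lo. The second foxk1 peak, in intron 1, was at the lowest value in DP-R1hi and at 4.51 in DP-R1lo. Both foxq2 peaks (-5.67 and -4.26) and the peaks of foxq1a (-3.12), foxq1b (-3.70) and the cilia gene foxj1b (-5.55) were more open in DP-R1lo.

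Among T-box genes, tbx2b had the most peaks, 9 over 183 kb upstream of and at its promoter, with 1 more open in DP-R1hi and 8 in DP-R1lo. All but the promoter peak lay in introns 22 and 23 of the neighbouring gene bcas3, so that the assignment to tbx2b rests on distance alone. The strongest was in intron 22, 153890 bp upstream (chromosome 15, 27277337 to 27277928), at the lowest value in DP-R1hi and at 6.47 in DP-R1lo (-6.61). The peak of intron 23, 30193 bp upstream, had 0.40 in DP-R1hi and 6.64 in DP-R1lo (-6.24). The farthest, 182216 bp upstream, was the only one more open in DP-R1hi, with 5.66 in DP-R1hi and 2.60 in DP-R1lo (3.06).

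At tbx2a, 1 of 5 peaks was more open in DP-R1hi and 4 in DP-R1lo, and all except the promoter peak were intergenic. The exception lay 30630 bp upstream, with 5.48 in DP-R1hi and 2.54 in DP-R1lo (2.94). Beyond it, at 57913, 74213 and 197782 bp upstream, the log2 folds were -2.60, -4.25 and -2.5. At tbx3a all 3 peaks, at the promoter, in exon 6 and beyond the gene, were more open in DP-R1lo and lay within 9.49 kb. The exon 6 peak had 2.97 in DP-R1hi and 6.27 in DP-R1lo (-3.30), and the peak beyond the gene 3.71 in DP-R1hi and 6.32 in DP-R1lo (-2.61).

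Together, the heart T-box genes tbx1, tbx2a, tbx2b and tbx3a had 2 of 19 peaks (10.5%) more open in DP-R1hi and 17 in DP-R1lo, with a median log2 fold of -2.61. Of these 19 peaks, 14 belonged to tbx2a and tbx2b, and 8 of those lay in introns of bcas3. The share thus rests largely on 2 genes. The mesoderm genes eomesa, tbx6 and tbx6l had 2 of 5 peaks (40%) more open in DP-R1hi and 3 in DP-R1lo. Over all listed peaks 40.8% were more open in DP-R1hi. The heart genes tbx3b, tbx5a, tbx5b and tbx20 and the mesoderm genes tbxta, tbxtb, tbx16 and eomesb had no listed peak. The pharyngeal arch gene tbx1 had 2 peaks more open in DP-R1lo, 223007 and 278593 bp upstream, with -0.14 in DP-R1hi and 5.70 in DP-R1lo for the nearer and 3.81 in DP-R1hi and 6.02 in DP-R1lo for the farther. The mesendoderm gene eomesa had 3 intergenic peaks. The nearest, 62821 bp upstream, had 6.12 in DP-R1hi and 3.66 in DP-R1lo (2.46), and the other two were more open in DP-R1lo (-5.50 and -2.30). In the last exon of tbx6, a paraxial mesoderm gene, the level was 4.53 in DP-R1hi and 6.77 in DP-R1lo (-2.24). The only peak of its relative tbx6l (tbx16l in the current RefSeq table), 44650 bp from the start site, had 6.13 in DP-R1hi and 3.23 in DP-R1lo (2.90).

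Where both copies of a duplicated gene had peaks, in 4 pairs one copy held peaks of both directions and the other only peaks more open in DP-R1lo. This was so for foxo1b and foxo1a, foxo3a and foxo3b, foxp1a and foxp1b, and foxc1a and foxc1b. For tbx2a and tbx2b both copies held both directions, with 1 peak each more open in DP-R1hi, and for foxq1a and foxq1b neither did. In each of these first 4 pairs the copy with both directions also had more peaks. With only 1 peak, foxc1b could not hold both directions. Inside foxp1b, peaks of both directions lay nearest to the start site of another gene and were not counted.

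Neighbouring peaks mostly shared a direction. Another listed peak lay within 10 kb of 31 Fox peaks, with the same direction for 23 (74.2%), and of 9 T-box peaks, with the same direction for all 9. Over all 2545 listed peaks with such a neighbour the share was 81.7%. Opposite neighbours of 1 gene within 10 kb were seen at foxo1b, foxp2, foxl2 and foxn4.

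No listed peak had tbx20 as its nearest gene, so that these lists say nothing on the accessibility of the roof marker. Of 62 Fox genes in the RefSeq table, 30 were the nearest gene of a listed peak and 32 were not, among them foxm1, foxf2b and foxh1. Of 21 T-box genes, 8 had a listed peak and 13 had none, among them tbx16, tbx5a and tbx5b. Family genes whose names fall outside the symbol pattern (tbr1a, tbr1b, mga and foxs1) had 0 listed peaks. A gene with no listed peak may have had open chromatin that did not differ between the populations, or a peak that passed no threshold. Its peak may also have been given to another gene by distance. Inside foxl3, foxo6b and foxr1, a listed peak lay nearest to the start site of another gene.

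Genes that act with the families were counted in the same way. Regulators of FoxO activity in the insulin, PI3K and Akt pathway had 14 peaks over 11 of 20 genes, 7 more open in DP-R1hi and 7 in DP-R1lo, with a median log2 fold of 0.21. Heart and vessel partners (nkx2.5, Gata, Mef2c, isl1 and ETS genes) had 25 peaks over 9 of 10 genes, with 9 (36%) more open in DP-R1hi and 16 in DP-R1lo, against 40.8% and 59.2% of all listed peaks. Within 50 kb of a start site these partners had 3 peaks more open in DP-R1hi and 14 in DP-R1lo. At that distance the numbers were 14 and 32 for Fox, 2 and 8 for T-box, and 2536 and 3513 for all listed peaks.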

How the data were processed

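ATAC-seq libraries were trimmed with Trimmomatic (0.32) and aligned to zebrafish Zv10 (GRCz10) with BWA (0.7.12) by the authors. They called peaks with MACS against genomic DNA, ran DiffBind between both populations and annotated the peaks with HOMER (3.0). Peaks were kept at a log2 fold change beyond 0.7. The deposited lists have no header. Their log2 values were taken as the authors' mean concentrations for DP-R1hi, DP-R1lo and both, since the third is the log2 of the mean of the other two within 0.01, as for equal numbers of libraries. Which mean belonged to which population was read from the authors' DP-R1hi over DP-R1lo fold change, which equals their difference. The folds given here were computed from the means. Library depths are not known, which leaves the precision of each value unknown. The other populations were not analysed here.

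Fox and T-box genes were selected by symbol. The members and gene lists were chosen with earlier results of these data known. Named were genes with 2 or more peaks or a peak at the start site, those of the largest folds, and a set list including tbx20. Current names came from RefSeq (GRCz12tu, names only), matched for 106 of 107 peaks. Families were compared with all listed peaks by counts and medians, with other fold thresholds, distances and gene assignments as alternatives. Promoter motifs and proteins were not analysed here. The counting was tested on simulated symbols. Python 3.11.15, pandas 2.3.3, scipy 1.17.1 and matplotlib 3.10.9 were used. Coordinates are those of the files.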

Additional observations from a re-analysis of the deposited data

How the results depend on the processing

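Of 39 values under other settings, 0 changed direction and 2 moved out of the 95% interval of the value given above. For the share of Fox peaks more open in DP-R1hi this interval was 20.5% to 41.8%, which includes the 40.8% of all listed peaks. For T-box peaks it was 4.5% to 36.1%. These intervals treat peaks as independent, which peaks of 1 gene are not, and for the 8 T-box genes they are wide, so that a value inside them shows no stability. The share of Fox peaks more open in DP-R1hi moved to 20.0% (6 of 30) with the peak closest to each start site, against 44.6% over the other genes by the same rule. The Fox median log2 fold moved to -1.235 without the 35 Fox peaks at a lowest value. Of those left out, 29 were more open in DP-R1lo and 6 in DP-R1hi, so that the median rose by construction. The share of T-box peaks more open in DP-R1hi ranged between 16% and 25%, and with the thromboxane genes counted it was 21.4%. Leaving out the gene with the most peaks, chosen after seeing the data, gave 32.9% for Fox (without foxp4) and 18.8% for T-box (without tbx2b). No paired analysis was possible because each population has 1 mean for each peak, and replicates could not be left out in turn for the same reason. Precision is limited by unknown depth.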

Other observations

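The tbxas1 peak, set aside because thromboxane A synthase is no T-box factor, was among the most open HE peaks of the lists. It lay in intron 3 of the gene on chromosome 18 (12755839 to 12756235), with a level of 10.62 in DP-R1hi and 5.73 in DP-R1lo, a log2 fold of 4.89. Its DP-R1hi level held place 10 of the 3864 peaks more open in DP-R1hi. Thromboxane A synthase makes the platelet-activating lipid thromboxane A2. Its receptor gene tbxa2r had 1 intron peak more open in DP-R1hi, with 6.05 in DP-R1hi and 3.34 in DP-R1lo (2.71), and 1 intergenic peak, 280516 bp upstream, more open in DP-R1lo, with 1.95 in DP-R1hi and 6.09 in DP-R1lo (-4.14).

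A further 5 peaks lay inside a Fox transcript but had another gene as their nearest start site, and were thus not counted. In foxp1b, a peak at the lowest value in DP-R1hi and at 7.02 in DP-R1lo (-7.16) lay beside one with 5.88 in DP-R1hi and 2.16 in DP-R1lo (3.72). With these, foxp1b would hold both directions like its copy foxp1a. In foxr1 the level was 5.32 in DP-R1hi and 2.29 in DP-R1lo (3.03). In foxl3 it was 4.79 in DP-R1hi and 6.79 in DP-R1lo (-2.00), and in foxo6b it was at the lowest value in DP-R1hi and at 5.72 in DP-R1lo (-5.86).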
